A study of Mus musculus with 5 samples.

Results

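The TREM family of triggering receptors on myeloid cells and its adaptors comprised 7 of the 32285 genes measured, chosen by symbol: the receptors Trem1, Trem2, Trem3, Treml2 and Treml4 and the adaptors Tyrobp and Hcst. All 7 were found in the matrices, and each was read as raw unique molecular identifiers (UMIs), which count captured mRNA molecules. The libraries came from tumours grown in the flanks of mice injected with a mouse lung cancer line, Lewis lung carcinoma. The injected cells carried either a control (Scramble, 3 libraries) or an sgRNA against JAG2 (JAG2KO, 2 libraries). The tumours were digested with Liberase at endpoint, and live CD45+ leukocytes were sorted and sequenced with the 10x Genomics 3′ assay. Both groups share the cell line, the injection site and the sort, and the edit is in the injected cells, so Jag2 in the sorted host cells does not check the labels. Whether the JAG2KO cells were 1 clone or a pool is not given in the sources used here, nor are the strain, sex and age of the mice or whether each library was a separate tumour. P-values therefore measure only the spread between libraries, which may be technical.

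TREM receptors are cell surface proteins with an immunoglobulin-like domain and short tails, most of which signal through a partner. Tyrobp (DAP12) carries an activation motif that recruits the kinase Syk, and Hcst (DAP10) recruits phosphoinositide 3-kinase and serves the natural killer (NK) cell receptor encoded by Klrk1. Trem1 is known as an amplifier of inflammation on neutrophils and monocytes, and Trem2 as a lipid-binding receptor of tissue macrophages, microglia and tumour macrophages.

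Cells were assigned to classes by marker genes, none of which is a member. The gates gave 4241 to 11926 macrophages, 307 to 640 monocytes, 200 to 819 neutrophils and 34 to 102 NK cells per library, with all markers of the own list detected in each. Total UMIs per library were 84788907 to 111680641. The library JAG2KO 2 stood apart in depth, with a median of 2445 UMIs per kept cell against 7672.5 to 8617 in the other libraries, and the calls of the comparisons between groups within a class are given without it as well. Of the kept cells, 8.49% to 9.89% were gated as neutrophils in Scramble, against 2.12% in JAG2KO 1 and 1.42% in JAG2KO 2. These gates together held 74.9% to 78.1% of the kept cells in Scramble, 66.9% in JAG2KO 1 and 70.6% in JAG2KO 2. The other kept cells lay in other classes or in no gate. Pairs of libraries shared 15 to 48 cell barcodes, at most 0.505% of the kept cells of the first library of a pair. Levels are CPM, the UMIs of a gene per 1000000 UMIs summed over a class in a library. A sum cannot tell more cells with the RNA from more RNA per cell.

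On GRCm38 the receptor genes lie side by side on the forward strand of chromosome 17, in the order Trem1 (48232768 to 48246924), Trem3 (48247777 to 48258841), Treml4 (48264295 to 48275360), Treml2 (48299498 to 48312533) and Trem2 (48346401 to 48354147). The adaptor genes face each other on chromosome 7, Tyrobp at 30413760 to 30417585 on the forward strand and Hcst at 30417712 to 30419854 on the reverse strand, with 126 bases between them. The RefSeq table of GRCm38.p6 held promoters of Trem1, Trem2, Treml4 and Hcst, 4 of the 7 members. The 250 bases before the start of the receptors Trem1, Treml4 and Trem2 are shown because these neighbours had their highest level in 3 different classes. Capitals mark GAGGAA on either strand (TTCCTC where it lies on the reverse strand), a core bound by the myeloid factor PU.1.
Trem1, chr17:48232489-48232738, forward strand: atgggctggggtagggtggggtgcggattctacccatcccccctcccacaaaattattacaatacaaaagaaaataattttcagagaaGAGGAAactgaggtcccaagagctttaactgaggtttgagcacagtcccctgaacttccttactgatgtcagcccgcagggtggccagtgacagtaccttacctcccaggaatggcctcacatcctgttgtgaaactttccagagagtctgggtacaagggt
Treml4, chr17:48264045-48264294, forward strand: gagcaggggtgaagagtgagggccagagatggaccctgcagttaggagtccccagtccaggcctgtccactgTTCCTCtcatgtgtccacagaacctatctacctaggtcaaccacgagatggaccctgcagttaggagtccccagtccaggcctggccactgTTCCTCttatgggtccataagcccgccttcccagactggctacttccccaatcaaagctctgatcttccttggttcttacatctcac
Trem2, chr17:48346151-48346400, forward strand: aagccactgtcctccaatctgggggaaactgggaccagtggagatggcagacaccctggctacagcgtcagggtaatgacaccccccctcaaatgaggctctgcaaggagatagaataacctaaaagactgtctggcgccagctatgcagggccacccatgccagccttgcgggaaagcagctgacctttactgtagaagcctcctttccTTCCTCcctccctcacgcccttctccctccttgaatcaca
Counted from the RefSeq start that follows each window, the match began 162 bases before it in Trem1, 178 and 87 bases before it in Treml4, and 40 bases before it in Trem2. The Hcst window held none. For Trem1 the window ends at 48232738, so its RefSeq start lies before the gene start of 48232768 given above. Of 32851 promoter windows of this length, 23.3% held the motif, so its presence does not set these promoters apart.

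**Figure D1:**
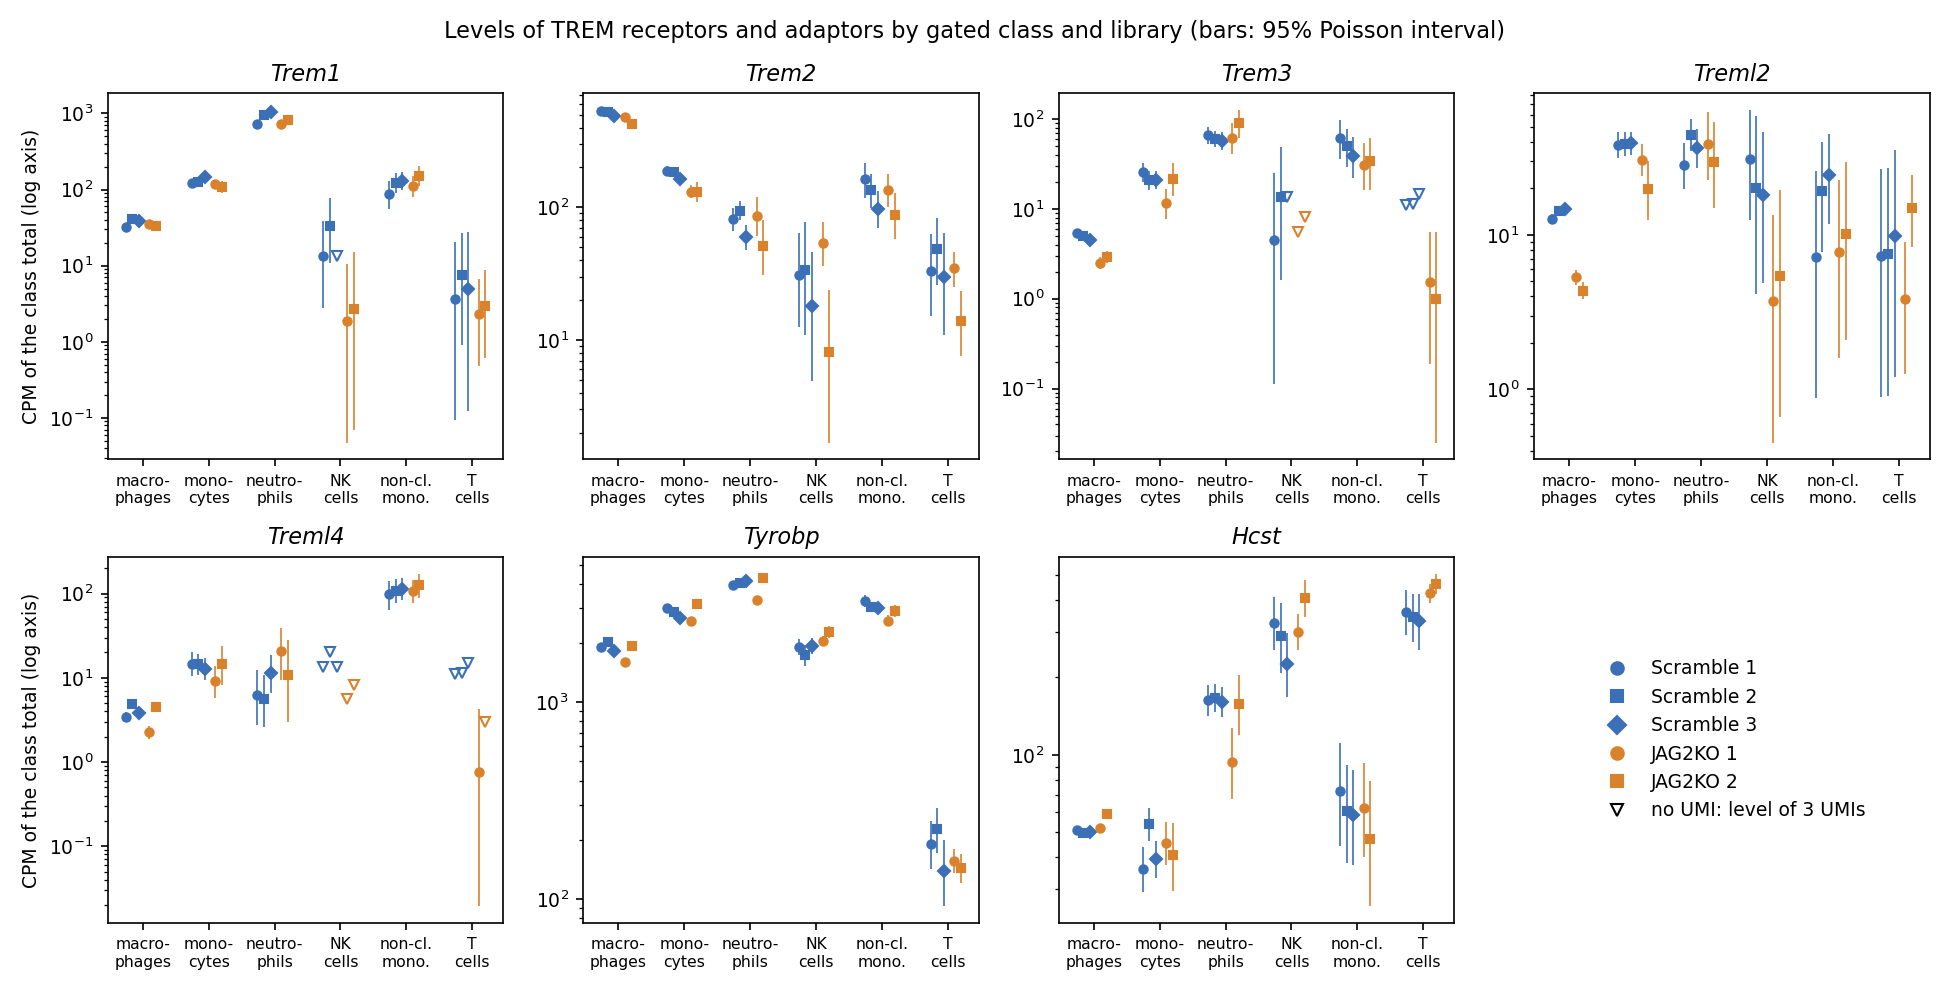
Level of each member (CPM of the class sum, log axis, a separate scale for each gene) in 6 gated classes. Each point is a library, bars are 95% Poisson intervals of the count, and an open triangle is the level of 3 UMIs where none was counted. Trem1 was highest in neutrophils and Trem2 in macrophages in all 5 libraries, and Treml4 stood highest in non-classical monocytes.

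Among the receptors, Trem1 was a neutrophil gene in these tumours. Its level in neutrophils was 726, 948 and 1052 CPM in Scramble 1, 2 and 3 and 734 and 830 CPM in JAG2KO 1 and 2. Monocytes held 122, 126, 145, 118 and 109 CPM in the same order, and macrophages 31.9, 41.7, 38.8, 34.9 and 33.1 CPM. The ranges of these 3 classes did not overlap. By edgeR's quasi-likelihood test with the library as a block, the log2 difference of monocytes minus neutrophils was -3.33 (SE 0.15, adjusted p = 1.42e-15) and that of macrophages minus monocytes was -1.94 (SE 0.15, adjusted p = 2.11e-11). Between classes most genes differed: 59.5% of 9617 genes were called between macrophages and monocytes, 72.4% between macrophages and neutrophils, 51.3% between macrophages and NK cells, 56.2% between monocytes and neutrophils, 53.5% between monocytes and NK cells and 62.2% between neutrophils and NK cells. A call by itself therefore says little about a member, and the size of its difference is the result.

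Trem1 in NK cells rested on 10 UMIs over the 5 libraries (3, 5, 0, 1 and 1), and T cells, gated as a class that lacks the gene, also held 10. For shares of cells, each cell of at least 1000 UMIs was thinned to 1000 UMIs, and shallower cells were left out. This kept 648 of 742, 709 of 819 and 617 of 748 neutrophils in Scramble 1, 2 and 3. In JAG2KO 1 and 2 it kept 181 of 200 and 160 of 252, so it draws unequally on the libraries. After thinning, 48.8% ± 6.94 (SD, n = 3) of Scramble neutrophils and 53.0% ± 2.44 (SD, n = 2) of JAG2KO neutrophils had a Trem1 UMI. In unthinned cells, which differ in depth between libraries, the shares were 61.4% ± 6.53 and 59.5% ± 4.98. Macrophages reached 4.36% ± 0.478 and 3.40% ± 0.216 after thinning, and T cells 0.956% ± 0.842 and 0.465% ± 0.177. Shares of UMIs are of all kept cells of a library, gated or not. Neutrophils were few, yet 21.7% to 28.1% of the Trem1 UMIs of the Scramble libraries lay in them. In JAG2KO, where neutrophils were fewer, 7.89% and 9.88% did. Macrophages, the most numerous class, held 36.6% to 59.5% of the Trem1 UMIs of a library at a level far below that of neutrophils. In the macrophage gate Trem1 was at 3.69% to 4.75% of its neutrophil level. S100a8 and S100a9 together were at 0.0389% to 0.137% of theirs, and Csf3r, the receptor gene for granulocyte colony-stimulating factor, was at 1.29% to 1.69%. These 3 are gate markers, and the macrophage gate left out cells with 64 or more neutrophil marker UMIs per 10000. Their level was therefore limited by the gate and is no baseline for Trem1, and the part of neutrophil RNA in it was not tested.

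Trem2 showed the reverse order, highest in macrophages. Macrophages held 536, 520, 485, 476 and 423 CPM in Scramble 1 to 3 and JAG2KO 1 and 2, and monocytes 188, 184, 164, 131 and 131 CPM. The lowest macrophage value was more than the highest monocyte value, and the log2 difference of macrophages minus monocytes was 1.46 (SE 0.14, edgeR adjusted p = 1.18e-09). Neutrophils held 81.7, 94.7, 59.6, 86.7 and 51.6 CPM and NK cells 31.2, 33.5, 18.0, 54.2 and 8.16 CPM. In neutrophils this was 12.2% to 18.2% of the macrophage level, beside 5.78% to 14.6% for the macrophage gene C1qa and 5.22% to 12.4% for Mrc1. C1qa and Mrc1 are gate markers, and the neutrophil gate left out cells with 64 or more macrophage marker UMIs per 10000. Their level there was therefore limited by the gate and is no baseline for Trem2. The part of free macrophage RNA in the Trem2 counts of other classes was not tested. T cells stood at 33.0, 48.8, 29.6, 34.7 and 13.8 CPM, a range that overlaps that of NK cells, so Trem2 in NK cells was at the level of a class that should lack it. Monocytes exceeded neutrophils by 0.54 (SE 0.16, edgeR adjusted p = 0.00576), and this call was lost with the stricter gate (0.23, edgeR adjusted p = 0.299), with doublets kept (edgeR adjusted p = 0.0700) and without Scramble 3 (edgeR adjusted p = 0.0556). Of all Trem2 UMIs of the kept cells, 85.8% to 90.4% lay in the macrophage gate.

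Trem3, an activating receptor that pairs with Tyrobp in mice, followed Trem1 at low counts. Neutrophils held 66.0, 60.2, 57.5, 61.6 and 89.5 CPM, monocytes 25.6, 20.7, 21.2, 11.6 and 21.7 CPM, and macrophages 5.37, 5.02, 4.50, 2.53 and 2.93 CPM. The 3 classes did not overlap, and the log2 difference of monocytes minus neutrophils was -2.21 (SE 0.18, edgeR adjusted p = 1.44e-10). Non-classical monocytes, a patrolling subset gated for context, held 31.2 to 61.4 CPM on 10 to 18 UMIs a library. NK cells held 1, 2, 0, 0 and 0 UMIs, and a count of 0 allows up to 13.5, 5.60 and 8.16 CPM in Scramble 3, JAG2KO 1 and JAG2KO 2 (the level of 3 UMIs, counting error only).

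Treml2 encodes TLT2, a receptor of myeloid and B cells, and it was low in every class. Monocytes held 38.2, 38.6, 39.1, 30.7 and 19.9 CPM and neutrophils 28.3, 44.5, 36.6, 38.8 and 29.8 CPM. These classes overlapped. The fit placed monocytes below neutrophils by 0.54 on the log2 scale (difference -0.54, SE 0.21, edgeR adjusted p = 0.0294), but without the TMM scaling between classes the difference was 0.05 (edgeR adjusted p = 0.843), so no order of the 2 classes is given. Macrophages lay lower, at 12.7, 14.2, 14.7, 5.31 and 4.36 CPM, and the log2 difference of macrophages minus monocytes was -1.91 (SE 0.16, edgeR adjusted p = 1.31e-10). NK cells held 7, 3, 4, 2 and 2 UMIs, and T cells 3.85 to 14.8 CPM.

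Treml4, a receptor known on patrolling monocytes and some dendritic cells, had its highest level outside the 4 main classes. Non-classical monocytes held 97.5, 107, 115, 107 and 125 CPM, on 27 to 47 UMIs a library. Classical monocytes held 14.8, 14.5, 12.7, 9.12 and 14.5 CPM, macrophages 3.39, 4.90, 3.83, 2.25 and 4.53 CPM, and neutrophils 6.29, 5.65, 11.5, 20.5 and 10.9 CPM. Every non-classical value was above every value of these 3 classes. Classical monocytes and neutrophils were not told apart (monocytes minus neutrophils -0.06, SE 0.32, edgeR adjusted p = 0.889), with a difference of 0.51 in the opposite direction without TMM scaling. Macrophages were lower than monocytes by a log2 difference of -1.98 (SE 0.22, edgeR adjusted p = 9.40e-08). No Treml4 UMI was counted in NK cells of any library, which allows up to 5.60 to 20.1 CPM (the level of 3 UMIs in a library).

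Tyrobp, the adaptor of most receptors of the family, was high in every myeloid class and in NK cells. Neutrophils held 3953, 4023, 4154, 3309 and 4295 CPM, monocytes 2999, 2887, 2686, 2585 and 3146 CPM, macrophages 1905, 2021, 1817, 1600.0 and 1929 CPM, and NK cells 1909, 1730, 1931, 2058 and 2286 CPM. Macrophages and NK cells overlapped and their log2 difference was -0.03 (SE 0.11, edgeR adjusted p = 0.865). The other neighbours in this order differed, with macrophages minus monocytes at -0.79 (SE 0.11, edgeR adjusted p = 1.60e-06) and monocytes minus neutrophils at -1.01 (SE 0.11, edgeR adjusted p = 3.24e-08). T cells held 138 to 225 CPM. After thinning, 95.9% ± 0.775 of Scramble neutrophils, 88.2% ± 1.99 of Scramble monocytes and 80.1% ± 2.05 of Scramble macrophages had a Tyrobp UMI (SD, n = 3), against 15.2% ± 0.868 of Scramble T cells.

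Hcst was highest in lymphocytes, with neutrophils next. NK cells held 325, 288, 226, 301 and 405 CPM and T cells 360, 342, 331, 423 and 462 CPM. Neutrophils held 163, 166, 160, 93.5 and 157 CPM, macrophages 51.1, 49.7, 50.3, 52.1 and 58.9 CPM, and monocytes 36.0, 53.8, 39.3, 45.6 and 40.7 CPM. NK cells exceeded macrophages without overlap (macrophages minus NK cells -2.51, SE 0.16, edgeR adjusted p = 7.19e-13), and macrophages and monocytes overlapped (0.11, SE 0.15, edgeR adjusted p = 0.557). NK cells also lay above neutrophils in all 5 libraries in CPM. With TMM scaling the log2 difference of neutrophils minus NK cells was -0.24 (SE 0.17, edgeR adjusted p = 0.224), and without it -1.04 (edgeR adjusted p = 1.04e-06), since TMM moved the median of all genes in that contrast by 0.81. TMM moved it by -0.74 between macrophages and neutrophils, -0.57 between monocytes and neutrophils, 0.24 between monocytes and NK cells and -0.17 between macrophages and monocytes. The directions given above for Trem1, Trem2, Trem3 and Tyrobp did not change without TMM.

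**Figure D2:**
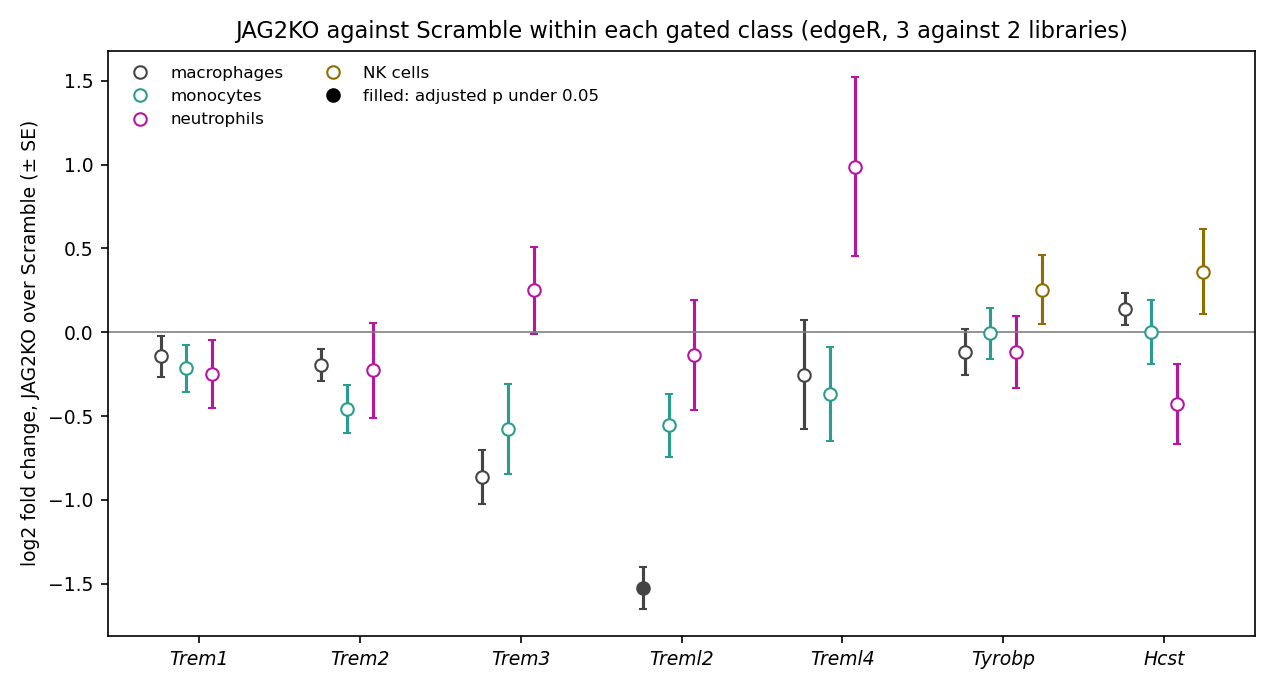
Log2 fold change of JAG2KO over Scramble for each member within each gated class, with its standard error, from edgeR on 3 and 2 library sums. The filled point, Treml2 in macrophages at -1.52, is the only member past an adjusted p of 0.05; in NK cells only Tyrobp and Hcst passed the filter on low counts.

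Between the groups, Treml2 in macrophages was the member that changed. In Scramble 1 to 3 its macrophage level was 12.7, 14.2 and 14.7 CPM, from 723 to 945 UMIs a library, and in JAG2KO 1 and 2 it was 5.31 and 4.36 CPM, from 338 and 243 UMIs. Both JAG2KO libraries lay below all 3 Scramble libraries. The Scramble mean was 13.9 ± 1.06 CPM (SD, n = 3) and the JAG2KO mean 4.84 ± 0.667 CPM (SD, n = 2), 65.1% lower, and the log2 fold change of JAG2KO over Scramble was -1.52 (SE 0.13, edgeR adjusted p = 0.0103). This was the only one of the 7 members called in macrophages, where 1.25% of 14106 genes were called in either direction, 0.603% as lower and 0.652% as higher. At an unadjusted p under 0.05 by edgeR there were 2 members of 7, Trem3 and Treml2, beside 18.6% of all genes. The call was lost when Scramble 2 was left out (-1.51, edgeR adjusted p = 0.0758), a setting that left 2 genes called in all, and it held without the shallow JAG2KO 2 (-1.42, edgeR adjusted p = 0.0275).

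Per cell the Treml2 difference was seen in few cells. After thinning to 1000 UMIs, 1.31% ± 0.200 of Scramble macrophages (SD, n = 3) and 0.440% ± 0.0552 of JAG2KO macrophages (SD, n = 2) had a Treml2 UMI. Leaving out shallower cells kept 9603 of 11926 macrophages in JAG2KO 2 and 5393 of 5460 in Scramble 1. Before thinning the shares were 12.5% ± 0.821 and 3.46% ± 2.16. These are at unequal depth and not comparable between the groups. The median macrophage held 2859 UMIs in JAG2KO 2 and 10578 to 10945.5 in the other libraries. The 2-sided exact permutation p over the 5 libraries was 0.1, the smallest that 3 against 2 allows. The 9 neutrophil markers, all detected in each library, summed to 118, 169 and 130 CPM in Scramble macrophages and 64.1 and 150 CPM in JAG2KO macrophages. The groups overlapped, and only JAG2KO 1 was lower than every Scramble library. In macrophages with no UMI of any of these markers, a subset added after seeing the data, the fold change of Treml2 was -1.72 (edgeR adjusted p = 0.00435). The subset kept 1956 of 5460, 1266 of 5971 and 1318 of 4241 macrophages in Scramble 1, 2 and 3. In JAG2KO 1 and 2 it kept 3218 of 5558 and 8007 of 11926, so it draws unequally on the groups. The part of neutrophil RNA in the Treml2 difference was not tested. The share of gated macrophages within 25% of the gate's level was 4.87% to 10.4%.

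Trem3 in macrophages stood next. Its JAG2KO values of 2.53 and 2.93 CPM were both below the Scramble values of 5.37, 5.02 and 4.50 CPM, with a log2 fold change of -0.87 (SE 0.16, edgeR adjusted p = 0.0547), which misses the threshold. Trem3 passed it with the stricter gate (-1.07, edgeR adjusted p = 0.0329), in macrophages with no neutrophil marker UMI (-0.996, edgeR adjusted p = 0.0493), without the filter on low counts (-0.88, edgeR adjusted p = 0.0154) and by DESeq2 (-0.86, DESeq2 adjusted p = 0.00105). Without JAG2KO 2 it was -1.01 (edgeR adjusted p = 0.0849). Of the other members, Trem2 was lower in both JAG2KO libraries, with a log2 fold change of -0.20 (SE 0.10, edgeR adjusted p = 0.349) and 33.5% ± 2.06 against 37.8% ± 1.83 of thinned macrophages with a UMI. Hcst was higher in both (0.14, SE 0.09, edgeR adjusted p = 0.512). Trem1 (-0.14, SE 0.12), Treml4 (-0.25, SE 0.32) and Tyrobp (-0.12, SE 0.14) overlapped between the groups, with edgeR adjusted p of 0.620, 0.763 and 0.735. By these counts 4 of the 7 members did not overlap between the groups in macrophages, where 33.8% of all genes did not.

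In monocytes no member was called by edgeR, and 0.75% of 9461 genes were. At an unadjusted p under 0.05 there were 3 members of 7 by edgeR, Trem2, Treml2 and Trem3, beside 8.91% of all genes, and DESeq2 also called 0 members. Trem2 went from 188, 184 and 164 CPM in the Scramble libraries to 131 CPM in each JAG2KO library, a log2 fold change of -0.46 (SE 0.14, edgeR adjusted p = 0.200), and the groups did not overlap. Treml2 was 38.2, 38.6 and 39.1 CPM against 30.7 and 19.9 CPM, also without overlap (-0.56, SE 0.19, edgeR adjusted p = 0.278). Without JAG2KO 2 the values were -0.49 for Trem2 and -0.38 for Treml2 (edgeR adjusted p = 0.294 and 0.634). Trem3 was lower only in JAG2KO 1 (-0.58, SE 0.27, edgeR adjusted p = 0.533). Trem1 did not overlap between the groups either (-0.22, SE 0.14, edgeR adjusted p = 0.756), which made 3 of 7 members, beside 25.1% of all genes. The monocyte gate is a range of marker levels, and 17.01% to 25.4% of its cells lay within 25% of its lower limit.

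In neutrophils no member was called by edgeR among 5.97% of 7376 genes, no member had an unadjusted p under 0.05 (20.1% of all genes did), and DESeq2 called 0 members. Trem1 overlapped between the groups (-0.25, SE 0.20, edgeR adjusted p = 0.529). Treml4 was 6.29, 5.65 and 11.5 CPM against 20.5 and 10.9 CPM, from 4 to 16 UMIs a library (0.99, SE 0.53, edgeR adjusted p = 0.318). Hcst was lower in JAG2KO 1 at 93.5 CPM, while JAG2KO 2 at 157 CPM was close to the 160 to 166 CPM of Scramble (-0.43, SE 0.24, edgeR adjusted p = 0.335), and it was the only member of 7 whose groups did not overlap, beside 39.9% of all genes. Without JAG2KO 2 the Hcst value was -0.94 (edgeR adjusted p = 0.0401). With the looser neutrophil gate Trem1 (-1.05), Treml2 (-0.9996) and Hcst (-0.84) were called lower by edgeR, with adjusted p of 0.00240, 0.0310 and 0.0108. That gate raised the neutrophil sum from 438449 to 793878 UMIs in JAG2KO 1 (200 to 229 cells) and from 368574 to 607805 in JAG2KO 2 (252 to 298 cells). In Scramble 1, 2 and 3 the sums went from 1272195, 1593822 and 1392219 to 1421755, 1720271 and 1532695 UMIs. The part of the added cells in these calls was not tested. Macrophage markers in the neutrophil gate, with all 8 detected, summed to 1949 to 2567 CPM in Scramble, 1688 CPM in JAG2KO 1 and 1017 CPM in JAG2KO 2, and their part in these values was not tested. In JAG2KO 1 the neutrophil sum was 438449 UMIs from 200 cells, and 320942 UMIs from the 191 cells with at most 5% mitochondrial UMIs. The median cell held 1655.5 UMIs, so a few deep cells held much of that sum. Their part in the low Hcst value of JAG2KO 1 was not tested.

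In NK cells only Tyrobp and Hcst passed the filter on low counts, so nothing is said of the others there. Tyrobp was 1909, 1730 and 1931 CPM in Scramble 1 to 3, 2058 CPM in JAG2KO 1 and 2286 CPM in JAG2KO 2, higher in both JAG2KO libraries (0.25, SE 0.21, edgeR adjusted p = 0.9996), where 15.3% of 3931 genes did not overlap. Hcst overlapped (0.36, SE 0.25, edgeR adjusted p = 0.9996). No gene of the 3931 (0%) was called by edgeR, 3.31% had an unadjusted p under 0.05, and DESeq2 called 3 genes, none of them a member. The class held 34 to 102 cells a library. Its gate set no upper limit on monocyte markers, of which 5 or 6 of 6 were detected. They summed to 1332 to 1803 CPM there, beside 3826 to 4499 CPM for NK markers. Their part in the NK values was not tested.

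The difference of the JAG2KO effect between classes was tested with an interaction term. The Treml2 effect was less negative in monocytes than in macrophages, by 0.96 on the log2 scale (SE 0.22, edgeR adjusted p = 0.0433), where 0.595% of 10754 genes were called. It was also less negative in neutrophils, by 1.21 (SE 0.34, edgeR adjusted p = 0.0248), where 9.41% were called. Trem3 in neutrophils (0.96, SE 0.29, edgeR adjusted p = 0.0335) and Hcst in neutrophils (-0.73, SE 0.21, edgeR adjusted p = 0.0315) also differed from macrophages. Leaving out 1 library ended the Treml2 call in monocytes and the Trem3 call in all 5 cases each, with edgeR adjusted p of 0.0767 to 0.567 and 0.0756 to 0.234. It ended the Treml2 call in neutrophils in 4 of 5 cases (0.0309 without Scramble 2, otherwise 0.0525 to 0.287). It ended the Hcst call without Scramble 2, Scramble 3 or JAG2KO 1 (edgeR adjusted p = 0.0763, 0.0605 and 0.524).

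**Figure D3:**
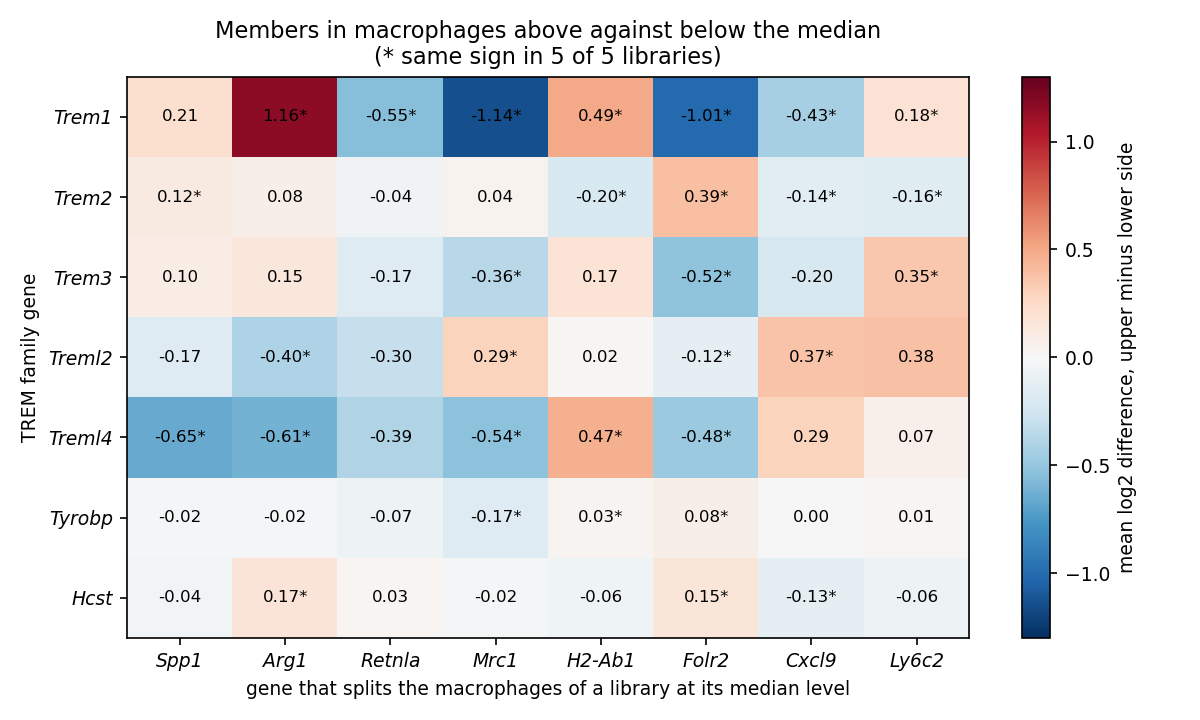
Mean log2 difference over 5 libraries of each member between macrophages above and not above the library's median level of a state gene (columns). Colour and number give the difference, and a star marks the same sign in 5 of 5 libraries; Trem1 ranged from -1.14 with Mrc1 to 1.16 with Arg1, while Tyrobp stayed between -0.17 and 0.08.

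Within macrophages the receptors followed different states. Macrophages of each library were divided at their median level of a state gene, with cells at or below the median on the lower side. For Retnla, Cxcl9 and Ly6c2 the upper side is therefore the minority of cells with a UMI. Mrc1 is a marker of the macrophage gate, and Ly6c2 is one of the monocyte markers whose sum had an upper limit in it. The part of the gate in the differences with these genes was not tested. Trem1 was higher with Arg1, an arginine-degrading enzyme of suppressive macrophages, by 1.16 ± 0.33 on the log2 scale (SD, n = 5). It was lower with the mannose receptor gene Mrc1 by 1.14 (difference -1.14 ± 0.32) and with the folate receptor gene Folr2 (-1.01 ± 0.27). All 3 differences had 1 sign in 5 of 5 libraries. So did those of Trem1 with H2-Ab1 (0.49 ± 0.30), Ly6c2 (0.18 ± 0.13), Retnla (-0.55 ± 0.49) and Cxcl9 (-0.43 ± 0.16). Trem2 was higher with Folr2 (0.39 ± 0.07) and slightly higher with Spp1 (0.12 ± 0.04), and lower with the antigen presentation gene H2-Ab1 (-0.20 ± 0.10), each in 5 of 5 libraries.

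Treml2 and Treml4 were both lower with Arg1, at -0.40 ± 0.15 and -0.61 ± 0.36, in 5 of 5 libraries. Treml2 was higher with Mrc1 (0.29 ± 0.15) and with the interferon-induced chemokine Cxcl9 (0.37 ± 0.24), and Treml4 was lower with Spp1 (-0.65 ± 0.41) and higher with H2-Ab1 (0.47 ± 0.25). Trem3 was lower with Folr2 (-0.52 ± 0.23) and higher with Ly6c2 (0.35 ± 0.24). Tyrobp varied least, between -0.17 with Mrc1 and 0.08 with Folr2. For each of these the 2-sided exact sign-flip permutation p was the smallest that 5 libraries allow, which was 0.117 after adjustment over 56 combinations, so none passed the threshold.

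The lower Treml2 level in JAG2KO was present on both sides of every split. Above the median of Spp1 it was 12.3 CPM on average in Scramble and 4.86 CPM in JAG2KO, and below it 15.5 and 4.81 CPM. Above the median of Arg1 the means were 11.3 and 4.33 CPM, and below it 16.5 and 5.35 CPM. Over the 16 sides the log2 ratio of JAG2KO over Scramble, taken on the group mean CPM plus 1, ran from -1.60 in macrophages with a Cxcl9 UMI to -0.77 in those with a Ly6c2 UMI. The value with a Retnla UMI was close to the latter, at -0.79. These sides are small and hold 15 to 90 Treml2 UMIs a library for Ly6c2 and 11 to 66 for Retnla.

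**Figure D4:**
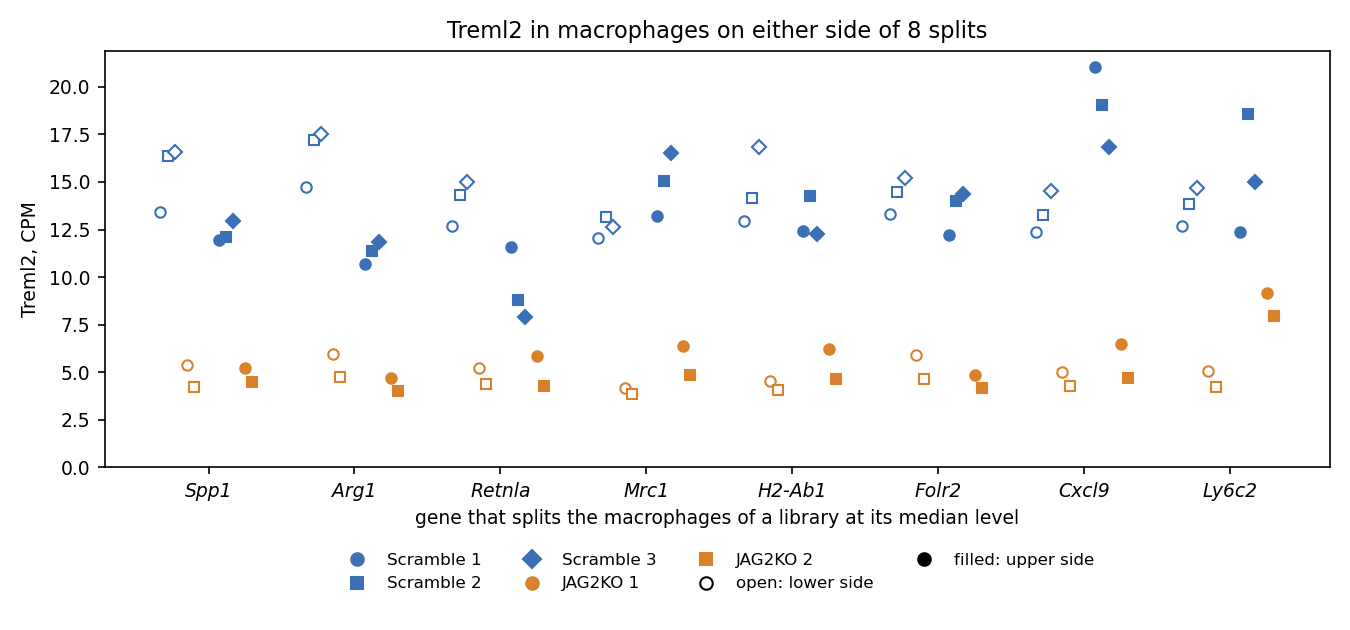
Treml2 level (CPM) in macrophages of each library on the lower (open) and upper (filled) side of 8 splits by a state gene. On each side of each split both JAG2KO libraries lie below all 3 Scramble libraries.

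Detection of receptors in the same cell was rare, and after thinning Trem3 and Treml2 were each detected in few cells at all. Among thinned Scramble macrophages with a Trem1 UMI, 6 of 211 in Scramble 1 (2.84%) and none in Scramble 2 and 3 also had a Trem3 UMI. Among those without a Trem1 UMI the shares were 0.579%, 0.616% and 0.504%. In JAG2KO 1 and 2 the shares were 1.03% and 0.321% with a Trem1 UMI, against 0.151% and 0.204% without one. These shares rest on few cells, and the libraries did not all show the same order. Among the 1508 to 2168 Scramble macrophages with a Trem2 UMI, 1.07% to 1.43% had a Treml2 UMI, against 1.11% to 1.53% of the macrophages without one. In neutrophils with a Trem1 UMI, 5.42% to 14.6% had a Trem3 UMI, against 2.56% to 6.10% of those without one. In JAG2KO 1 the shares were 6.06% and 6.10%, so the libraries did not all show the same order. Each share among cells with a Trem1 UMI rests on 6 to 21 cells with both. The shares among cells without one rest on other small counts. The values 14.6% and 2.56% are those of JAG2KO 2, where 82 of 160 thinned neutrophils had a Trem1 UMI.

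Genes with the most similar pattern were sought over the 20 sums of 4 classes in 5 libraries, among 7795 candidates, by Pearson r of log2(CPM + 1). The sums share libraries and depth, so r is a description. Trem2 was closest to Grn, the progranulin gene (r = 0.988), Dab2 (0.980) and Sash1 (0.977). Trem1 was closest to Tpd52 (0.970), Xylt1 (0.969) and Plk3 (0.964), Trem3 to Dhx38 (0.957), Slfn4 (0.947) and Igfbp6 (0.947), and Treml4 to Taldo1 (0.962), Sbno2 (0.957) and Lst1 (0.951). Tyrobp was closest to Rnf144a (0.968), Srgn (0.954) and Pim1 (0.951), and Hcst to the lymphotoxin gene Ltb (0.957), Mctp2 (0.954) and Rgs3 (0.952). Treml2 had no gene as close, with Oas3, an interferon-induced antiviral enzyme, at 0.870, 1600014C10Rik at 0.864 and Trim30d at 0.835. Between members r was 0.963 for Trem1 and Trem3 and -0.851 for Trem2 and Hcst.

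Of the genes downstream of the adaptors, none of 22 signalling genes was called in macrophages. Their median log2 fold change was 0.07, beside -0.00 over all genes. The smallest adjusted p among them were those of Zap70, the kinase of T and NK cells (1.99, SE 0.41, edgeR adjusted p = 0.0655, at 0.183 to 1.24 CPM), and Malt1, part of the Card9 complex (0.91, SE 0.20, edgeR adjusted p = 0.0708). T cell markers in the macrophage gate, with all 5 detected, summed to 2.06, 4.46 and 1.85 CPM in Scramble, 7.26 CPM in JAG2KO 1 and 19.3 CPM in JAG2KO 2, and their part in the Zap70 value was not tested. Lcp2 (0.25) and Nfatc1 (0.27) had an edgeR adjusted p of 0.164 and 0.166. In monocytes 0 of 20 measured were called and in NK cells 0 of 14. In neutrophils 2 of 19 rose: Nfatc1, a calcium-responsive transcription factor, from 72.3, 28.9 and 67.5 CPM in Scramble to 322 and 141 CPM in JAG2KO (2.01, SE 0.32, edgeR adjusted p = 0.00147), and Lat2, a membrane adaptor, from 30.7, 40.8 and 43.8 CPM to 73.0 and 81.4 CPM (0.95, SE 0.26, edgeR adjusted p = 0.0372). The Nfatc1 call was lost at most 5% mitochondrial UMIs (1.24), with the stricter gate (0.57) and without JAG2KO 1 (1.38), with edgeR adjusted p of 0.166, 0.805 and 0.130, and it held without JAG2KO 2 (2.40, edgeR adjusted p = 0.000534). The Lat2 call was lost under 7 alternatives, by DESeq2 (adjusted p = 0.145) and without Scramble 1, JAG2KO 1 or JAG2KO 2 (edgeR adjusted p = 0.0552, 0.140 and 0.173) among them, and its value with the stricter gate was -0.44, in the opposite direction. In neutrophils 4.76% of all genes rose and 1.21% fell. At most 5% mitochondrial UMIs the JAG2KO 1 neutrophil sum went from 438449 UMIs in 200 cells to 320942 UMIs in 191 cells. The part of the few deep cells lost there in the Nfatc1 value was not tested.

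Of 8 inhibitors and sheddases none was called in any class by edgeR (median -0.05 in macrophages). In macrophages Dok1 was -0.18 (SE 0.09, edgeR adjusted p = 0.320), and Adam17 (0.14), Adam10 (-0.10) and Ubash3b (0.11), the first 2 of them proteases that shed TREM receptors, had an edgeR adjusted p of 0.583 to 0.699. Of 6 ligands or binding partners none was called in any class by edgeR. Lgals3, a galectin, was 881 to 1019 CPM in Scramble macrophages and 1358 and 1424 CPM in JAG2KO (0.56, SE 0.11, edgeR adjusted p = 0.0633). Apoe, a lipid carrier that Trem2 binds, was 6126 to 7833 CPM against 5955 and 3954 CPM (-0.48, SE 0.20, edgeR adjusted p = 0.252). Clu and Pglyrp1 lay at or under 1.38 CPM in macrophages.

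Of 14 other receptors that use these adaptors, with the related adaptor Fcer1g, none was called in any class by edgeR. Clec5a, a Tyrobp-coupled lectin, was 127.7, 115 and 116 CPM in Scramble macrophages and 94.9 and 93.9 CPM in JAG2KO (-0.34, SE 0.09, edgeR adjusted p = 0.103). The NK receptor genes Klrk1 (1.35), Klrd1 (1.33) and Klrc2 (1.82) stood at 0.143 to 7.78 CPM in macrophages, with an edgeR adjusted p of 0.120 to 0.141. NK markers in the macrophage gate summed to 2.35 to 3.89 CPM in Scramble, 6.09 CPM in JAG2KO 1 and 10.1 CPM in JAG2KO 2, with all 7 detected, and their part in these values was not tested.

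Among 16 genes known from Trem2-dependent lipid-associated macrophages, of which 15 were measured in macrophages, 1 rose and 1 fell. Lpl, the lipoprotein lipase, rose from 24.7, 27.0 and 27.1 CPM in Scramble to 133 and 102 CPM in JAG2KO (2.16, SE 0.11, edgeR adjusted p = 0.00262). Spp1, osteopontin, fell from 4423, 3194 and 3230 CPM to 693 and 602 CPM (-2.49, SE 0.19, edgeR adjusted p = 0.00841), a call that was lost without Scramble 2 (-2.57, edgeR adjusted p = 0.0708). Without JAG2KO 2 the values were 2.30 for Lpl (edgeR adjusted p = 0.00414) and -2.42 for Spp1 (edgeR adjusted p = 0.0217). Ctsd (-0.58) and Fabp4 (-0.47) had an edgeR adjusted p of 0.0735 and 0.124. The median of the list was 0.16, beside -0.00 over all genes.

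In monocytes 1 of 14 rose, Lpl (1.73, SE 0.16, edgeR adjusted p = 1.65e-05), and 1 fell, Spp1 (-1.55, SE 0.19, edgeR adjusted p = 0.000466), where 0.359% of all genes rose and 0.391% fell. With the stricter monocyte gate the Lpl value was 0.97 (edgeR adjusted p = 0.257). Without JAG2KO 2 Lpl was 1.85 and Spp1 -1.75 (edgeR adjusted p = 8.75e-06 and 0.000115). In neutrophils 2 of 14 rose, Lpl (2.69, SE 0.44, edgeR adjusted p = 0.00154) and Cst7, a cystatin also known from T and NK cells (2.76, SE 0.62, edgeR adjusted p = 0.0131), and 2 fell, Spp1 (-1.05, SE 0.24, edgeR adjusted p = 0.0139) and Ctsl (-0.76, SE 0.20, edgeR adjusted p = 0.0323). Cst7 rested on 3, 4 and 3 UMIs in Scramble 1 to 3 and on 10 and 4 UMIs in JAG2KO 1 and 2. T cell markers in the neutrophil gate, of which 4 or 5 of 5 were detected, summed to 11.8, 19.5 and 12.9 CPM in Scramble, 45.6 CPM in JAG2KO 1 and 27.1 CPM in JAG2KO 2. NK markers, of which 4 to 7 of 7 were detected, summed to 4.72 to 15.1 CPM in Scramble, 20.5 CPM in JAG2KO 1 and 19.0 CPM in JAG2KO 2, and the part of either in the Cst7 value was not tested. Spp1 in the neutrophil gate was 1428 to 2174 CPM in Scramble, 753 CPM in JAG2KO 1 and 958 CPM in JAG2KO 2, and the part of macrophage RNA in it was not tested. Of the alternatives tried, 8 ended the neutrophil call of Ctsl, 4 that of Spp1 and 2 that of Lpl, among them the limit of at most 5% mitochondrial UMIs for all 3. That limit took the JAG2KO 1 neutrophil sum from 438449 to 320942 UMIs, and the part of the cells it removed in these calls was not tested. Without JAG2KO 1 the neutrophil values of Lpl (2.25), Spp1 (-0.81) and Ctsl (-0.67) had an edgeR adjusted p of 0.104, 0.147 and 0.259. Without Scramble 1 those of Spp1 (-0.79) and Ctsl (-0.66) had 0.0550 and 0.0749, and without Scramble 2 that of Ctsl (-0.65) had 0.151. With the stricter gate Spp1 was -0.34 and Ctsl -0.46 (edgeR adjusted p = 0.733 and 0.600). Without JAG2KO 2 the neutrophil values were 2.97 for Lpl, 3.09 for Cst7, -1.33 for Spp1 and -0.86 for Ctsl, with edgeR adjusted p of 0.00159, 0.0268, 0.00443 and 0.0387.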

How the data were processed

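Single-cell RNA sequencing was done on 3 Scramble and 2 JAG2KO libraries of sorted CD45+ cells. The deposited values are whole-number counts of UMIs per gene and cell, made with cellranger 6.0.0 per the file headers. Seurat and GRCm38/mm10 are named in the submitters' processing notes. The labels tie replicates to no animal.

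Cells under 500 UMIs or 250 genes, or with over 10% mitochondrial UMIs, were dropped, and the 8% with the highest Scrublet score (scanpy 1.11.5) in each library were removed as likely doublets. Classes were gated on summed marker UMIs per 10000 UMIs of a cell. Macrophages were taken from 64, monocytes from 32, neutrophils from 128 and NK cells from 4. Upper limits were set on most other classes' markers, but the NK and neutrophil gates set none on monocyte markers. The members and gene lists were chosen with earlier results of these data known. The gate levels were set after the pooled marker distributions had been seen, without reading the members. All members are named. Of each list, up to 4 genes with the smallest adjusted p in macrophages and up to 4 called in each other class are named, and for each member the 3 genes of highest correlation over class sums.

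UMIs were summed per library and class and tested with edgeR 4.0.16 (quasi-likelihood, TMM, filterByExpr, Benjamini-Hochberg adjustment over all genes tested, threshold 0.05) in R 4.3.3. Class contrasts had the library as a block. Shares of cells with a UMI were taken after thinning to 1000 UMIs, with cells under 1000 UMIs left out. Alternatives covered cell filters, gates, doublets, DESeq2 1.42.0, the low-count filter, the replicate number as a block and leaving out each library. A further 3, on neutrophil marker UMIs, on TMM and on leaving libraries out of the effect differences, were added after seeing the data. The tests were checked on simulated counts. Intervals cover counting error only.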

Additional observations from a re-analysis of the deposited data

Results flagged for a closer look

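The effect of JAG2KO on 3 members was called different between classes by an interaction term in edgeR. Of all genes, 0.595% were called in monocytes against macrophages and 9.41% in neutrophils against macrophages. As given above, leaving out 1 library ended each of these members' calls in some or all of the fits. For Treml2 the log2 effect in monocytes minus that in macrophages was 0.96, and in neutrophils minus macrophages it was 1.21. For Trem3 and Hcst the effect in neutrophils minus that in macrophages was 0.96 and -0.73. The adjusted p were 0.0433, 0.0248, 0.0335 and 0.0315 by edgeR. With 1 library left out the values ran from 0.73 to 1.06 for Treml2 in monocytes, from 1.10 to 1.37 for Treml2 in neutrophils, from 0.70 to 1.19 for Trem3 and from -1.13 to -0.39 for Hcst.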

How the results depend on the processing

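The number of genes called by edgeR changed with the settings. In macrophages, with 177 genes called, there were 113 at most 5% mitochondrial UMIs, 564 with the stricter gate, 304 in cells with no neutrophil marker UMI, 1090 by DESeq2, 989 without the filter on low counts and 2 to 399 with 1 library left out. Of the members, 2 were called in place of 1 with the stricter gate, in cells with no neutrophil marker UMI, by DESeq2 and without the filter, and 0 to 1 with 1 library left out. In monocytes the 71 genes became 15 with the stricter gate, 131 with the looser gate, 19 in cells with no neutrophil marker UMI, 43 by DESeq2, 203 without the filter and 32 to 79 with 1 library left out. In neutrophils the 440 became 683 in cells of at least 1000 UMIs, 17 at most 5% mitochondrial UMIs, 37 with the stricter gate, 3073 with the looser gate, 252 by DESeq2 and 106 to 511 with 1 library left out. There 3 members were called with the looser gate and 0 to 1 with 1 library left out. In NK cells the 0 became 5 with doublets kept, 4 and 1 with the stricter and looser gates, 3 by DESeq2, 22 without the filter and 0 to 19 with 1 library left out. The cause was not tested.

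The replicate number as a block gave 698 genes in macrophages, 185 in monocytes and 19 in NK cells, and it changed the call of no member. Same-numbered libraries correlated at -0.05 to 0.20 in their deviations, with 2 such pairs a class. With 2 JAG2KO libraries, the correlation of a Scramble library with 1 of them is the negative of that with the other. The labels give no shared animal, batch or day, so whether the numbers pair the libraries is not known.

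Signs turned mostly in values that passed the threshold in neither setting, with Lat2 and Treml2 as exceptions named here. In monocytes with the stricter gate Treml4 was 0.22, Tyrobp 0.19 and Hcst 0.23. Tyrobp there was 0.0103 in cells of at least 1000 UMIs and 0.0239 with thinned sums, and Hcst was 0.0617 with the looser gate, 0.21 with thinned sums and 0.0663 in cells with no neutrophil marker UMI. In neutrophils at most 5% mitochondrial UMIs Trem1 was 0.0346 and Treml2 0.21. With the stricter gate there Trem1 was 0.14, Treml2 0.37, Tyrobp 0.0653 and Lat2, called in the reported fit, -0.44, and with the looser gate Trem3 was -0.57. Between classes, Hcst in macrophages minus monocytes was -0.0557 with the stricter gate. In monocytes minus neutrophils Treml4 was 0.0389 in cells of at least 1000 UMIs, 0.28 with the stricter gate and 0.51 without TMM, and Treml2, called in the reported fit, was 0.0498 without TMM.

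With 1 library left out, the log2 fold change in macrophages ran from -0.89 to 0.20 for Treml4, from -0.30 to 0.0465 for Tyrobp and from -0.0386 to 1.49 for Pglyrp1. In monocytes it ran from -0.66 to 0.0723 for Treml4, from -0.19 to 0.16 for Tyrobp and from -0.0929 to 0.19 for Hcst. In neutrophils it ran from -0.58 to 0.0001 for Trem2, from -0.12 to 0.59 for Trem3, from -0.26 to 0.0934 for Treml2 and from -0.42 to 0.13 for Tyrobp. The level of Tyrobp in macrophages minus NK cells ran from -0.19 to 0.0281, and that of Treml4 in monocytes minus neutrophils from -0.31 to 0.16. The effect in monocytes minus that in macrophages ran from -0.28 to 0.12 for Hcst, from -0.15 to 0.0308 for Trem1 and from -0.0942 to 0.24 for Treml4.

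Of the members' fold changes under alternatives, 298 kept their direction and side of the threshold, 8 came past it, 1 lost it and 25 changed sign. Small numbers lay behind some values, such as 34 to 102 NK cells a library and 4 to 16 Treml4 UMIs in neutrophils.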
